A study of Mus musculus with 72 samples.

Results

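The transcripts of 8 blood cell genes were followed in mouse hearts: 6 genes of platelets and their parent cells, the megakaryocytes (Ppbp, Pf4, Rgs18, Itga2b, Gp9 and Cd226), and 2 genes of neutrophils (S100a8 and S100a9). They were chosen by gene symbol, with earlier results of these data known. They are 8 of the 19505 genes tested, each read by 1 probe set. The hearts came from female CB6F1/Hsd mice that were 100 to 120 days old when obtained and received a single whole-body exposure, and RNA was taken 16 months later. Cs-IR, a gamma ray reference with low linear energy transfer, was given at 40, 80, 120 or 160 cGy. Si-IR, at 260 MeV/n and 70 keV/µm, was given at 4, 8, 16 or 32 cGy, and Ti-IR, at 1000 MeV/n and 100 keV/µm, at 3, 6.5, 13 or 26 cGy. Each radiation type had its own sham group, whose mice were held in the plastic holders without exposure. The 72 arrays form 15 groups of 5, apart from Cs 160 cGy, Si sham and Ti 6.5 cGy with 4 each. The study describes 5 animals for each ion and dose. The labels number replicates without naming animals, so p-values measure the spread between these samples. The sources used here do not state whether blood was flushed from the hearts.

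Platelets have no nucleus and carry RNA made by megakaryocytes, so their transcripts can be read in any tissue that holds blood or clots. Ppbp encodes the precursor of the chemokine CXCL7, which attracts neutrophils, and Pf4 encodes the chemokine CXCL4. Both proteins are stored in platelet alpha granules and released on activation. Rgs18 encodes a regulator that dampens G protein signalling in platelets. Itga2b encodes the alpha chain of the platelet fibrinogen receptor, and Gp9 encodes a subunit of the receptor for von Willebrand factor. Cd226 encodes an adhesion receptor found on platelets and also on T and NK cells. S100a8 and S100a9 encode the chains of calprotectin, a calcium-binding protein that fills the cytoplasm of neutrophils and is also made by monocytes. In whole hearts, fewer cells of a type and less RNA per cell cannot be told apart.

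Ppbp and Pf4 are neighbours on chromosome 5, with 0 protein-coding genes between them in GRCm38.p6, and S100a8 and S100a9 are neighbours on chromosome 3, likewise with 0 between them. The sequences before the start sites of 4 platelet genes are shown, those with an entry in the sequence set used. Rgs18 and Cd226 had no entry. Ppbp and Pf4 lie side by side and moved together across arrays, while Itga2b moved little with them and Gp9 lay between. Each line holds the 250 bases before the annotated start, from RefSeq on GRCm38.p6, 5′ to 3′ on the strand of the gene. The windows are chr5:90768268-90768517 on the plus strand for Ppbp, chr5:90772185-90772434 on the plus strand for Pf4, chr6:87777820-87778069 on the plus strand for Gp9 and chr11:102469884-102470133 on the minus strand for Itga2b. Capitals mark GATAA, the core letters that GATA factors bind, and GGAAG, core letters that ETS factors bind, read on both strands (TTATC and CTTCC).
Ppbp: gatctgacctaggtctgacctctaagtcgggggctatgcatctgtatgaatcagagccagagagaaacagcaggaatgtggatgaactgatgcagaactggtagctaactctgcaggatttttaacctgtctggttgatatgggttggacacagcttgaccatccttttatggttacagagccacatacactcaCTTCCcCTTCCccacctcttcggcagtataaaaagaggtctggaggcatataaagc
Pf4: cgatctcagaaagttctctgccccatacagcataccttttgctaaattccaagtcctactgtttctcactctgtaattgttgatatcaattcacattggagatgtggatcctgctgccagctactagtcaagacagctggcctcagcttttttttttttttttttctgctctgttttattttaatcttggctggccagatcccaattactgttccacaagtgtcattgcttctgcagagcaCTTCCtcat
Gp9: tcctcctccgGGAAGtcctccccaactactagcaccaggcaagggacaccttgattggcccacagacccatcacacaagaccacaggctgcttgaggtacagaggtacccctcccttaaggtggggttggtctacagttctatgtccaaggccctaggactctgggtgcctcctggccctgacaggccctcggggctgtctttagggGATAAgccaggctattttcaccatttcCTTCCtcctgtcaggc
Itga2b: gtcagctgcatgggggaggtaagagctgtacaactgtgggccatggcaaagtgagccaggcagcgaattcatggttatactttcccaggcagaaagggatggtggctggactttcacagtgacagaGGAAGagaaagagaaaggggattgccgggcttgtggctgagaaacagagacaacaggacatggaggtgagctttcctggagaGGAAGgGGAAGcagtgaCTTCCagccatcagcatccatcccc
GGAAG was found 2 times before Ppbp, 1 time before Pf4, 2 times before Gp9 and 4 times before Itga2b, and 64.1% of all 32851 mouse windows of this length held it. GATAA was found 1 time before Gp9, its last base 39 bases before the start, and in none of the other 3 windows shown, against 22.6% of all windows. The matches to the 2 motifs do not overlap each other in these windows. They describe the letters only.

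The deposited log2 values differed in level from array to array, with medians over transcript probe sets from 4.17 to 6.35, and were quantile normalized before any comparison. All signals below are normalized log2 values. A gene was read as above background on an array where its deposited value exceeded the median negative control signal of that array, which ran from 2.05 to 4.78. The arrays were processed in 2 batches, which the labels name: 43 arrays in batch 1 and 29 in batch 2. Cs 160 cGy had no array in batch 2, Si sham had none in batch 1, and Ti 6.5 cGy had 1 in batch 2. Batch was a term of every model. The tissue label was checked with 9 cardiomyocyte genes, all of which were above background on each of the 72 arrays.

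Ppbp, Pf4, Itga2b, Gp9 and S100a9 were above background on all 72 arrays. Cd226 was above it on 58, Rgs18 on 31 and S100a8 on 13. A stricter background limit was set higher among the negative controls of each array. Pf4, Itga2b and Gp9 passed it on all 72 arrays and Ppbp on 50. Cd226 passed it on 2, Rgs18 on 1, and S100a8 and S100a9 on 0. The array-to-array spread of some of these genes was among the widest measured: with group and batch removed, the SD of Ppbp was 1.08, at percentile 99.8 of all genes tested, that of Cd226 was 0.62, at percentile 99.4, and that of Rgs18 was 0.53, at percentile 99.1. Itga2b, with an SD of 0.23, stood at percentile 57.2. The plot of the 8 genes by array shows each value.

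**Figure D1:**
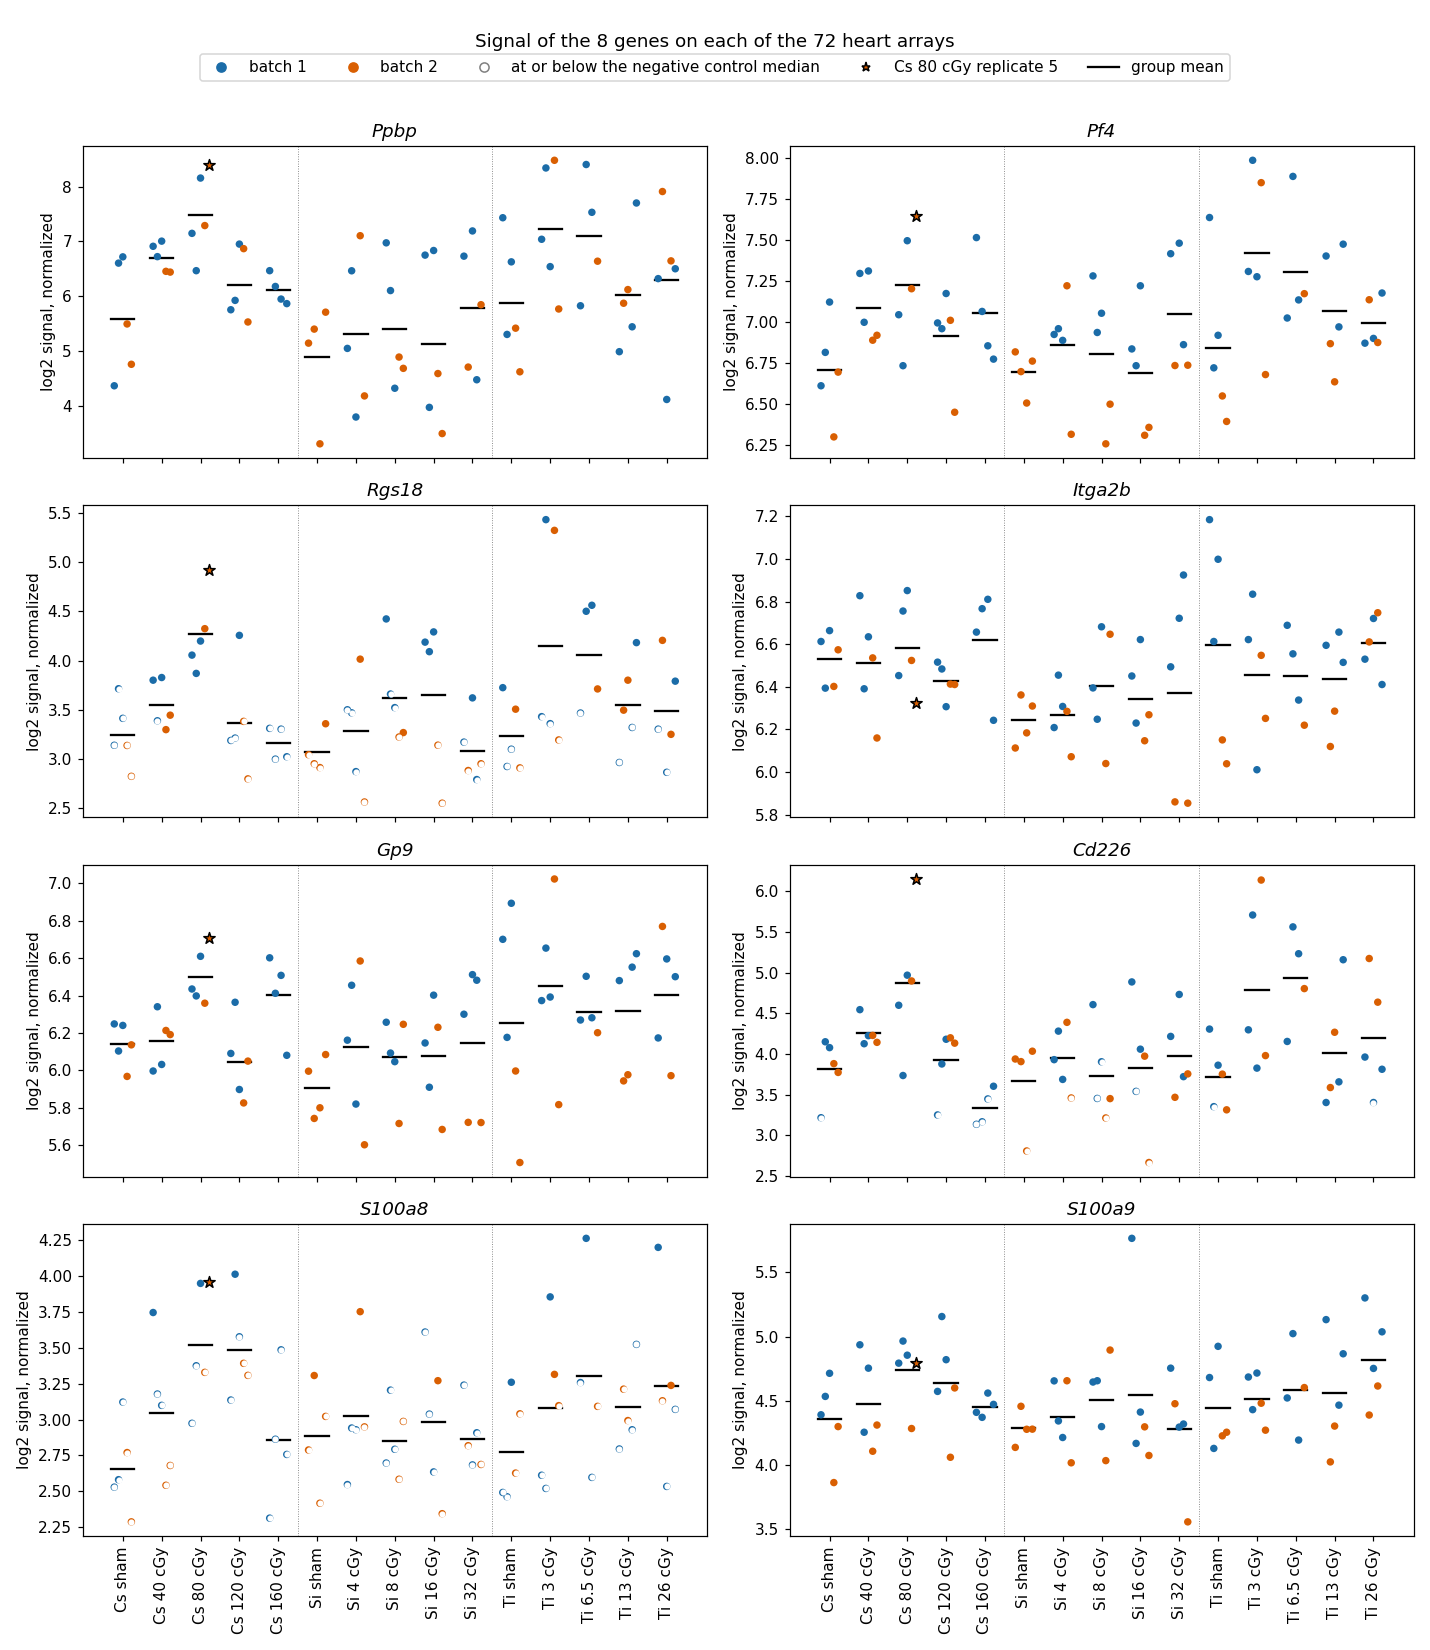
Normalized log2 signal (y axis) of each gene on every array, by exposure group (x axis), with batch 1 in blue and batch 2 in orange. Bars are group means, hollow points lie at or below the negative control median, and the star is Cs 80 cGy replicate 5. Ppbp, Rgs18, Gp9 and S100a8 have their highest group mean at Cs 80 cGy, and Ti 3 cGy holds 2 arrays of very high Ppbp, Rgs18 and Cd226.

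After 80 cGy of Cs-IR, 4 of the 8 genes were called upregulated against Cs sham: Ppbp, Rgs18, Cd226 and S100a8. A gene was called at an adjusted p under 0.25 (limma, Benjamini-Hochberg over all genes), the threshold of the study, and 0.297% of all genes tested were called upregulated in this comparison (0.482% in either direction). All 8 genes had a higher mean after 80 cGy, with a median difference of 0.69 on the log2 scale against -0.01 over all genes. At an unadjusted p under 0.05, 7 of the 8 were higher, against 3.38% of all genes. Since the 8 genes were chosen with earlier results of these data known, these counts are a description and not an independent test.

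The Ppbp signal after 80 cGy was 7.15, 6.47, 8.16, 7.29 and 8.39 in replicates 1 to 5, against 4.37, 6.60, 6.72, 5.49 and 4.76 in Cs sham. Of the 5 exposed arrays, 4 lay above every sham array, and replicate 2 lay below sham replicates 2 and 3. The means were 7.49 ± 0.78 and 5.59 ± 1.06 (SD, n = 5 each), a difference of 1.90 (SE 0.40, adjusted p = 0.0902), or 3.73-fold. Pf4, the neighbouring chemokine gene, read 7.04, 6.73, 7.50, 7.20 and 7.65 after 80 cGy and 6.61, 6.82, 7.12, 6.30 and 6.70 in sham. Its difference of 0.51 (SE 0.17) was in the same direction but did not pass the threshold (adjusted p = 0.480). Exposed replicates 3, 4 and 5 lay above the sham range and the other 2 lay inside it.

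Rgs18 was the one called gene whose groups did not overlap. It read 4.05, 3.87, 4.20, 4.32 and 4.92 after 80 cGy, all above background, and 3.14, 3.71, 3.41, 3.14 and 2.82 in sham, none above background. The signal was therefore at least 1.59-fold higher, taking each sham array at the higher of its own value and the lowest signal above background (adjusted p = 0.0870; measured means 4.27 and 3.24). Rgs18 passed the stricter background limit on only 1 of the 72 arrays, so this bound rests on dim signal. Gp9 also did not overlap, at 6.43, 6.40, 6.61, 6.36 and 6.71 against 6.25, 6.103, 6.24, 5.97 and 6.14, but its difference of 0.36 (SE 0.11) did not pass (adjusted p = 0.386). Higher signal without overlap was found for 0.528% of all genes. Itga2b, at 6.58 ± 0.22 against 6.53 ± 0.12 (SD, n = 5 each), differed by 0.05 (SE 0.12, adjusted p = 0.983).

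The Cd226 signal was 4.60, 3.73, 4.97, 4.90 and 6.15 after 80 cGy and 3.21, 4.15, 4.08, 3.88 and 3.77 in sham. Only replicate 2 of the exposed arrays lay within the sham range. The difference was 1.05 (SE 0.27, adjusted p = 0.202), or 2.07-fold. The Cd226 probe set was above background on 5 of 5 exposed and 4 of 5 sham arrays. It passed the stricter background limit on only 2 of the 72 arrays, so its fold changes rest on dim signal.

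S100a8 read 2.97, 3.38, 3.95, 3.33 and 3.96 after 80 cGy and 2.53, 2.58, 3.12, 2.77 and 2.29 in sham. It passed the threshold (adjusted p = 0.239), but only exposed replicates 3 and 5 and no sham array were above background, so no fold change is given. The S100a8 call was lost under 8 of 13 other settings, among them values as deposited (adjusted p = 0.9997) and aligned array medians (0.297). Its partner S100a9 was above background on each array, at 4.79, 4.97, 4.86, 4.29 and 4.80 against 4.39, 4.54, 4.71, 3.86 and 4.30. Exposed replicate 4 lay inside the sham range and the other 4 lay above it. The S100a9 difference was 0.38 (SE 0.14, adjusted p = 0.548). S100a9 passed the stricter background limit on 0 of the 72 arrays, so this difference also rests on dim signal.

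The calls at 80 cGy depended on single arrays, replicate 5 among them. Its Ppbp, Pf4, Rgs18, Gp9, Cd226 and S100a8 values were the highest of the group. Among all 72 arrays, with batch removed, it ranked 1 in Cd226 and 2 in Ppbp. It ranked 3 in Pf4, Rgs18, Gp9 and S100a8, and 4 in S100a9. Without it, 0 of the 8 genes were called by limma, when 0.0205% of all genes (4 genes) were, and 6 were higher at an unadjusted p under 0.05, against 2.46% of all genes. All 8 differences kept their sign, with a median of 0.54.

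Without replicate 5 the Ppbp difference was 1.63 (SE 0.40, adjusted p = 0.404) and that of Cd226 0.76 (SE 0.23, adjusted p = 0.573). That of Rgs18 was 0.82 (adjusted p = 0.350), and the adjusted p of S100a8 rose to 0.728. The Itga2b difference was 0.10 (SE 0.12). The call was also lost for all 4 genes without Cs sham replicate 1 or Cs sham replicate 5, and 2 members were called without Cs sham replicate 4, Cs 80 cGy replicate 3 or Cs 80 cGy replicate 4. Of the 24 fits that left out 1 Cs array each, the call was lost in 3 for Ppbp, 3 for Rgs18, 7 for Cd226 and 15 for S100a8. No member was called when all 72 arrays shared the fit, or when only the 2 compared groups entered it.

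**Figure D2:**
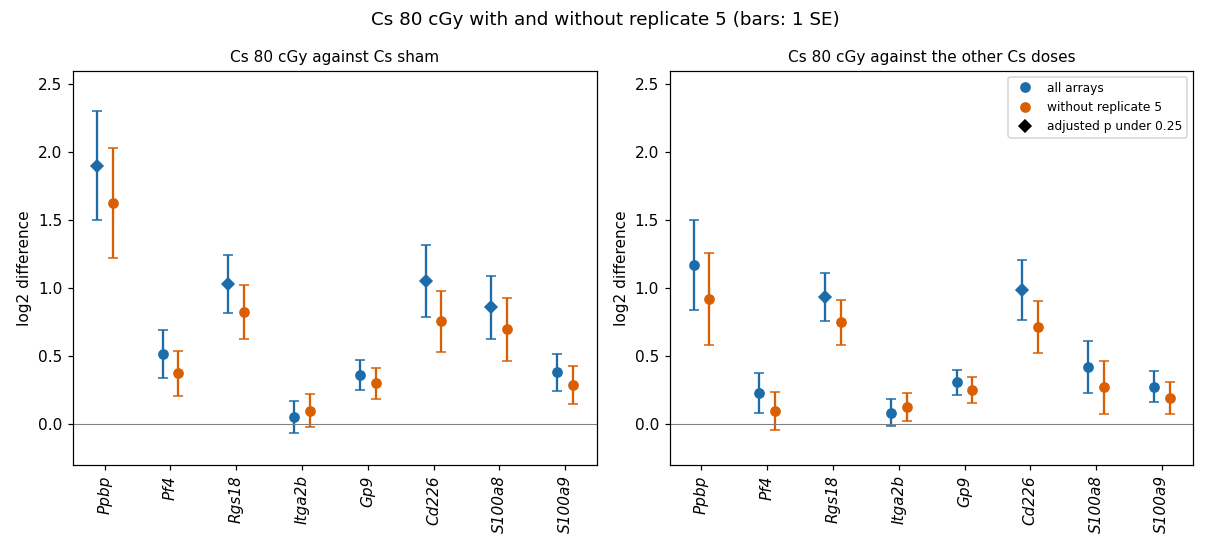
Log2 difference (y axis, bars 1 SE) of each gene at Cs 80 cGy against Cs sham (left) and against the other Cs doses (right), with all arrays in blue and without replicate 5 in orange. Diamonds mark an adjusted p under 0.25: 4 genes on the left and 2 on the right with all arrays, and 0 without replicate 5. For Rgs18 and S100a8 the sham signal lay at background, so their height on the left is not a fold change.

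Within batch 1, with 3 arrays in each group, the Ppbp difference was 1.36 and the groups overlapped. Within batch 2, with 2 arrays in each, it was 2.71 and they did not. Cd226 followed the same order, with 0.62 in batch 1 and 1.70 in batch 2, and so did Pf4, with 0.24 and 0.93. Replicate 5 is 1 of the 2 exposed arrays of batch 2. Rgs18 and Gp9 did not overlap over all arrays of the compared groups, so they could not overlap within a batch, and this adds nothing. In batch 1 S100a9 did not overlap, though it did in batch 2. In batch 2, with 2 arrays in each group, Cd226, Pf4 and S100a8 did not overlap, though they did in batch 1. Groups this small separate easily, and the share of all genes without overlap within a batch was not worked out.

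Against the mean of the other 3 Cs doses, Rgs18 and Cd226 were called upregulated at 80 cGy, in a comparison that called 0.041% of all genes upward and 0.108% in either direction, and 6 members were higher at an unadjusted p under 0.05, against 2.54% of all genes. The Cd226 difference was 0.98 (SE 0.22, adjusted p = 0.234), and the adjusted p of Rgs18 was 0.171. Ppbp, with a difference of 1.17 (SE 0.33), did not pass (adjusted p = 0.518). Both calls were lost without replicate 5, with differences of 0.75 for Rgs18 (adjusted p = 0.424) and 0.71 for Cd226 (0.534), when limma called 0.00513% of all genes and 4 members were higher at an unadjusted p under 0.05, against 2.14% of all genes. Of the 24 fits that left out 1 Cs array each, Rgs18 was called in 19 and Cd226 in 8.

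At the other Cs doses Ppbp, Rgs18 and Cd226 had smaller differences from sham than at 80 cGy. Ppbp at 40 cGy read between 6.44 and 7.005 on its 5 arrays, a narrow group (SD 0.26) whose mean was 1.12 (SE 0.40) above sham without passing (adjusted p = 0.809). At 40 cGy limma called none of the 8 genes and 0.22% of all genes, and 2 members were higher at an unadjusted p under 0.05, against 2.81% of all genes. At 160 cGy it called none of the 8 and 6.91% of all genes, and 0 members were higher at an unadjusted p under 0.05, against 6.03%. The Ppbp difference was 0.62 (SE 0.40) at 120 cGy and 0.46 at 160 cGy. Cs 160 cGy has arrays in batch 1 only, so its value rests on the fitted batch term. Within batch 1 the 160 cGy difference was 0.22. S100a8 was called at 120 cGy (adjusted p = 0.246, with 0.308% of all genes called upregulated and 0.682% in either direction), where its values of 3.14, 4.01, 3.58, 3.39 and 3.31 lay above every sham value (as for 0.523% of all genes), but only replicate 2 was above background and no fold change is given. That call was lost in 16 of the 24 fits that left out 1 Cs array each, with adjusted p up to 0.485. At 120 cGy S100a8 was also the only member higher at an unadjusted p under 0.05, against 3.67% of all genes. No straight line on dose was called for any of the 8 genes in the 3 radiation types, where limma called 1.55% of all genes for Cs-IR and 0% for Si-IR and for Ti-IR. The S100a9 slope for Ti-IR was the only one of the 24 at an unadjusted p under 0.05, a level that 4.74%, 2.31% and 2.62% of all genes passed with a rising line for Cs-IR, Si-IR and Ti-IR.

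**Figure D3:**
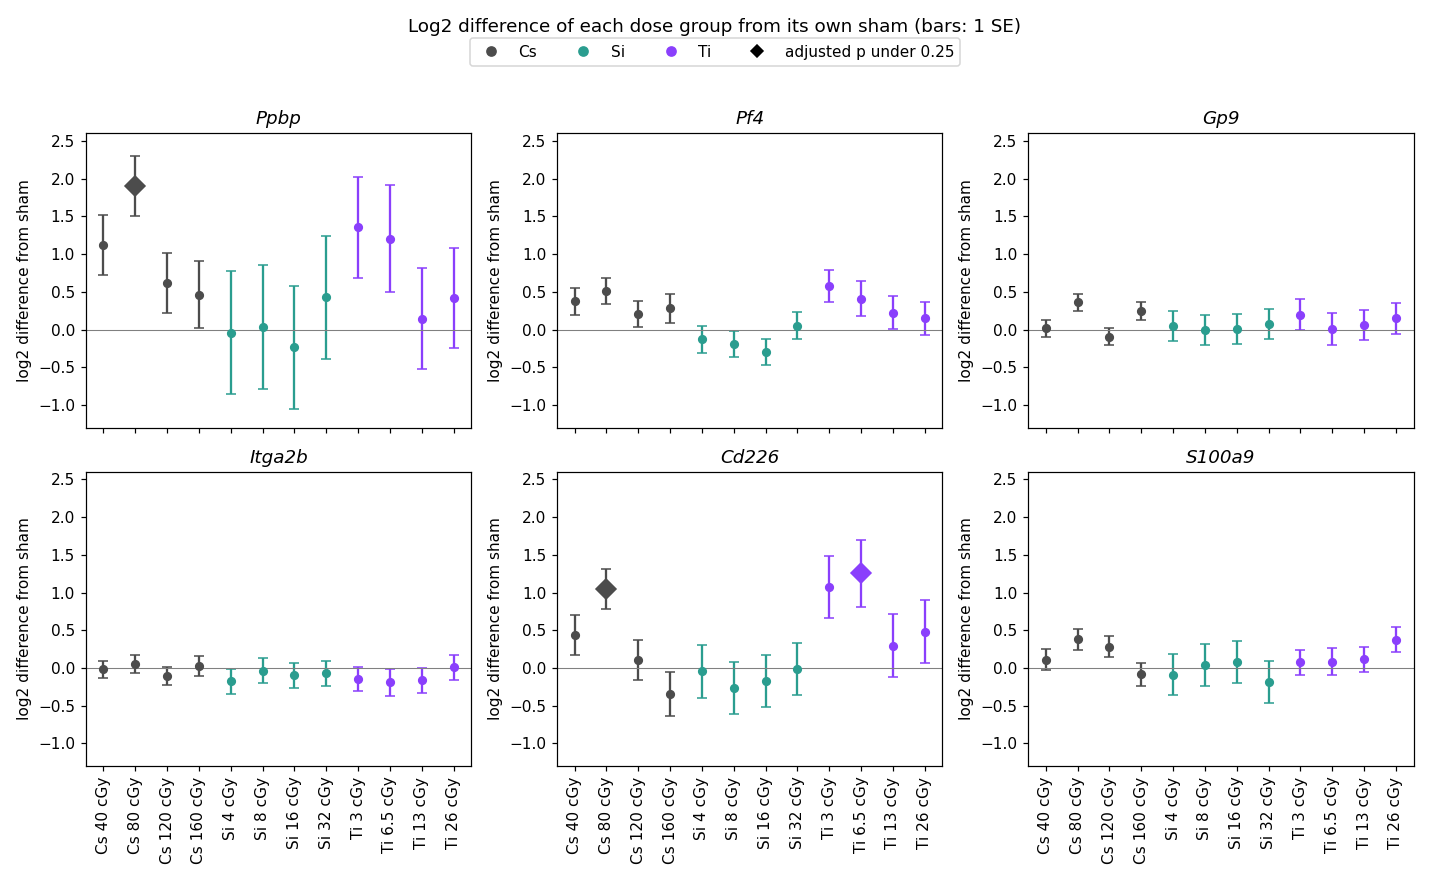
Log2 difference of each dose group (x axis) from its own sham (y axis, bars 1 SE) for the 6 genes above background on most sham arrays, with Cs in grey, Si in green and Ti in purple. Diamonds mark an adjusted p under 0.25: Ppbp and Cd226 at Cs 80 cGy and Cd226 at Ti 6.5 cGy.

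After Ti-IR, Cd226 was called upregulated at 6.5 cGy, in a comparison that called 2.72% of all genes upward and 5.6% in either direction. It was the only member at an unadjusted p under 0.05 there, against 6.69% of all genes upward. The Cd226 signal read 4.15, 5.56, 5.23 and 4.80 against 4.30, 3.35, 3.86, 3.75 and 3.31 in Ti sham, so that replicate 1 lay inside the sham range and the other 3 lay above it. The difference was 1.26 (SE 0.44, adjusted p = 0.222), or 2.39-fold, and within batch 1 it was 1.14. The call was lost without Ti sham replicate 1, 3 or 5 (adjusted p = 0.295, 0.389 and 0.281) and without Ti 6.5 cGy replicate 2 or 3 (0.492 and 0.415). It was also lost when replicate 3 was moved to batch 2 (0.268). Plots in the study single out a Ti array, and replicate 3 was taken here to be that array.

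At 3 cGy of Ti-IR, 2 hearts stood apart from the other 3 of their group. Ppbp read 7.04, 8.34, 6.54, 8.48 and 5.77 in replicates 1 to 5, and Cd226 read 4.30, 5.71, 3.83, 6.14 and 3.98. Rgs18 read 3.43, 5.43, 3.36, 5.32 and 3.19, with background passed in replicates 2 and 4 alone. Replicates 2 and 4, from batches 1 and 2, were the highest 2 of all 72 arrays in Pf4 and in Rgs18 with batch removed. None of the 8 genes was called at 3 cGy by limma (0.0103% of all genes were called), while 3 were higher at an unadjusted p under 0.05, against 4.34% of all genes. The Ppbp difference was 1.35 (SE 0.67, adjusted p = 0.561) and that of Cd226 1.07 (SE 0.42, adjusted p = 0.499).

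At 13 and 26 cGy of Ti-IR the Ppbp differences were 0.14 (SE 0.67) and 0.42 (SE 0.67). The batches differed in direction, with Ppbp at -0.41 in batch 1 and 0.98 in batch 2 at 13 cGy, and at -0.81 and 2.26 at 26 cGy. The Cd226 difference at 26 cGy was -0.11 in batch 1 and 1.37 in batch 2. No member was called by limma at either dose, where 0.426% and 0% of all genes were, and 0 and 1 members (S100a9 at 26 cGy, by 0.38) were higher at an unadjusted p under 0.05, against 4.14% and 3.62% of all genes.

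After Si-IR no member was called at any dose by limma, which called 0.159%, 0.128%, 0.0205% and 0.0513% of all genes at 4, 8, 16 and 32 cGy. None was higher or lower at an unadjusted p under 0.05, while 3.41%, 2.72%, 2.23% and 2.96% of all genes were higher. In Si-IR the median difference of the 8 genes ran from -0.07 to -0.02 over the 4 doses. Ppbp at Si-IR differed from Si sham by between -0.23 and 0.43. Si sham has arrays in batch 2 only, so these values rest on the fitted batch term. Within batch 2, with 2 exposed and 4 sham arrays, the Ppbp differences ran from -0.85 at 16 cGy to 0.75 at 4 cGy, where the fitted value was -0.04. The dose groups of a radiation type share its sham arrays, so their differences are not independent. With the values as deposited, all genes shifted with array level, with a median of -0.43 at 160 cGy of Cs-IR, where the median of the members was -0.35. The direction of the members' median turned at 120 and 160 cGy of Cs-IR and 8 cGy of Si-IR with these values, and with aligned medians it turned at 32 cGy of Si-IR.

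Over the 15 groups, Ppbp, Rgs18 and Cd226 passed the F test of limma for any difference between groups (adjusted p = 0.188, 0.174 and 0.118), as did 6.06% of all genes, and Pf4 did not (adjusted p = 0.265). The Ppbp mean was highest at Cs 80 cGy, followed by Ti 3 cGy (7.23 ± 1.17, SD, n = 5), Ti 6.5 cGy (7.10 ± 1.11, n = 4) and Cs 40 cGy (6.71 ± 0.26, n = 5), and lowest in Si sham (4.89 ± 1.08, n = 4). Neighbours in this order differed by less than the larger of their SDs. Cd226 led at Ti 6.5 cGy (4.94 ± 0.61, n = 4), Cs 80 cGy (4.87 ± 0.87, n = 5) and Ti 3 cGy (4.79 ± 1.06, n = 5). The means of these 3 groups also differed by less than their SDs. The same 3 groups had the highest means of Pf4 and of Rgs18. Between the 3 sham groups no member was called by limma in any of the 3 pairs, although 5.67%, 6.35% and 0.113% of all genes were called for Cs against Si, Si against Ti and Cs against Ti sham. None passed an unadjusted p under 0.05 either, while 6.89%, 6.45% and 4.61% of all genes did so upward.

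The batches themselves differed widely, with 65.2% of all genes called between them and 31.9% called lower in batch 2. Of the 8 genes, Pf4, Itga2b, Gp9, S100a9 and Rgs18 were lower in batch 2, by between 0.37 and 0.19 on the log2 scale for S100a9 and Rgs18. The Pf4 and Gp9 differences passed in the values as deposited too, but with aligned array medians Pf4 (adjusted p = 0.281) did not. All 8 were lower in batch 2 under those 2 scalings, and Cd226 was higher by 0.02 after quantile normalization.

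Across the 72 arrays, with batch removed, 4 platelet genes rose and fell together. The closest pairs were Ppbp with Cd226 (Pearson r = 0.84), Rgs18 with Cd226 (0.83), Ppbp with Pf4 (0.77) and Ppbp with Rgs18 (0.76). Within Cs, Si and Ti arrays, Ppbp with Cd226 gave 0.83, 0.78 and 0.92. With group means removed as well, Ppbp with Cd226 still gave 0.83 and Ppbp with Pf4 0.72. Itga2b followed these 4 genes weakly, with r from 0.12 with Rgs18 to 0.29 with Pf4, and went most with Gp9 (0.54). S100a8 and S100a9 went with each other (0.58) more than with any platelet gene. These values describe 72 arrays that share 15 exposures and a common normalization.

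**Figure D4:**
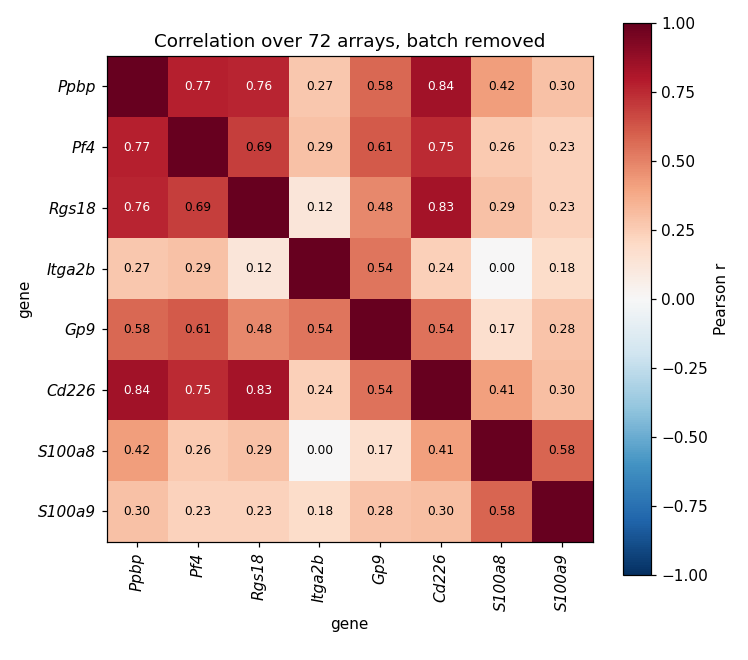
Pearson r of each pair of genes (both axes) over the 72 arrays with batch removed, from blue (-1) to red (1). Ppbp, Pf4, Rgs18 and Cd226 form a block of r from 0.69 to 0.84, while Itga2b and the pair S100a8 and S100a9 stand outside it.

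The non-member genes most like Ppbp over the same arrays were Clec1b, the receptor for podoplanin on platelets (r = 0.88), Ctla2a (0.86) and P2ry12, the platelet ADP receptor (0.86). Cd226 went most with P2ry12 (0.86), Ctla2a (0.82) and Plek, a substrate of protein kinase C in platelets (0.82). Rgs18 went most with Ctla2a (0.81), Clec1b (0.80) and Plek (0.79), and Pf4 with Ctla2a (0.79), P2ry12 (0.78) and Clec1b (0.77). Gp9 went most with Tubb1, the platelet beta tubulin (0.69), Treml2 (0.65) and Nrgn (0.64). The closest genes of Itga2b were Olfr1410 (0.62), Fubp3 (0.61) and Spin2c (0.61), none of them in the platelet list. With group means removed too, Ppbp with Clec1b gave 0.84 and Cd226 with P2ry12 0.81.

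S100a8 went most with Cybb, the catalytic subunit of the phagocyte oxidase (r = 0.59), Hacd4 (0.55) and Mkrn1 (0.54). S100a9 went most with Pip4k2a (0.54), H2ac13 (0.53) and Arhgap45 (0.52).

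Of the other platelet and megakaryocyte genes, 18 of the 22 listed were measured, 3 were called upregulated at 80 cGy of Cs-IR and none downregulated. These were Tubb1 (6.92 ± 0.45 against 6.09 ± 0.24, SD, n = 5 each; adjusted p = 0.107), Plek (6.71 ± 0.57 against 5.85 ± 0.26; adjusted p = 0.150) and Gp5, a partner of Gp9 in the receptor for von Willebrand factor (4.22 ± 0.45 against 3.27 ± 0.53; adjusted p = 0.235), which was above background on only 1 of 5 sham arrays. P2ry12, with a difference of 0.85 (SE 0.25), was the next in the list and did not pass (adjusted p = 0.348). The median difference of the 18 genes was 0.33, 16 of them had a higher mean, and none was called without replicate 5, when the median was 0.24. The mean signal of the 18 genes was 5.24, 5.02, 5.44, 5.43 and 5.80 in exposed replicates 1 to 5 and between 4.84 and 5.12 in sham, so that replicate 2 again lay inside the sham range. At 6.5 cGy of Ti-IR, 1 gene of this list was called upregulated and 1 downregulated, and at the other 10 dose groups none was called.

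Of 15 measured genes for binding partners and receptors of the 8 proteins, only Gp5, which is also in the platelet list, was called at 80 cGy. Itgb3, the chain that pairs with the product of Itga2b, differed by 0.51 (SE 0.23, adjusted p = 0.684), Ager, a receptor for calprotectin, by -0.12 (adjusted p = 0.928), and Cd96, which shares a ligand with Cd226, lay at background on all arrays of both groups. The median over the 15 genes was -0.01.

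Of 16 measured neutrophil genes other than the members, Ncf4, a subunit of the phagocyte oxidase, was called upregulated at 80 cGy (4.44 ± 0.37 against 3.53 ± 0.18, SD, n = 5 each; adjusted p = 0.0608, and 0.290 without replicate 5). Ncf4 was above background on only 2 of 5 sham arrays. Csf3r, the receptor for granulocyte colony-stimulating factor, differed by 0.39 (SE 0.14, adjusted p = 0.521), Itgam by 0.51 (SE 0.19, adjusted p = 0.550), and Ngp, a protein of neutrophil granules, lay at background on all arrays of both groups. The median difference was 0.11, and 11 of the 16 had a higher mean and the rest a lower one. The genes named so far, all higher, are those of lowest p in the list. The gene Ctsg was above background on none of the 72 arrays and Ngp on 5, while 7 of the 16 were above it on every array.

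Markers of other cells were read on the same arrays. Of 15 macrophage and monocyte genes, Mpeg1 (5.83 ± 0.40 against 5.06 ± 0.26; adjusted p = 0.206) and Aif1 (4.36 ± 0.63 against 3.32 ± 0.36; adjusted p = 0.206) were called upregulated at 80 cGy, with 13 of 15 means higher and a median difference of 0.41. Ccr2 (adjusted p = 0.265) and Lyz2 (0.286) came next in the list. Neither Mpeg1 (adjusted p = 0.646) nor Aif1 (0.573) was called without replicate 5, and Aif1 was above background on only 2 of 5 sham arrays. Of 11 T and NK cell genes none was called and the median was -0.04, with Nkg7 the nearest at a difference of 0.36 (SE 0.14, adjusted p = 0.588). Of 5 B cell genes none was called, with a median of 0.44, and Jchain, the joining chain of antibodies, was above background on 4 of 5 exposed and 0 of 5 sham arrays (adjusted p = 0.364).

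Of 7 endothelial genes none was called, and the lowest p was that of Selp, P-selectin, which platelets also carry (difference 0.99, SE 0.29, adjusted p = 0.348). The 9 cardiomyocyte genes had a median of -0.03 and no call. Of the 4 red cell genes measured none was called, and Alas2, the first enzyme of haem synthesis in red cell precursors, differed by 0.68 (SE 0.28, adjusted p = 0.650). The mean signal of those 4 genes was 6.41 in exposed replicate 5, 5.70 to 5.96 in the other exposed replicates and 5.48 to 5.73 in sham. The mean of the 15 macrophage genes was highest in exposed replicate 3 (6.73), with 6.41 in replicate 5 and 5.72 to 6.13 in sham. Over the 72 arrays, Ppbp gave r = 0.87 with the mean of the 18 platelet genes, 0.52 with that of the red cell genes, 0.30 with that of the macrophage genes and 0.24 with that of the neutrophil genes. With the mean of the 9 cardiomyocyte genes it gave -0.46, and Cd226 gave -0.57. The part of blood content in the differences was not tested.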

How the data were processed

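Total RNA from mouse hearts was hybridised to 72 Clariom S Mouse arrays. The authors describe RMA processing (background correction, log2 transformation and quantile normalization; version not given in the sources used here), and also signal space transformation in Expression Console. They deposited 29129 probe sets per array as log2 values. The array medians of the deposited values ran from 4.17 to 6.35, so these values were not taken as quantile normalized. They were quantile normalized here with limma 3.58.1 in R 4.3.3 over 22206 transcript probe sets. Each gene was represented by its brightest probe set (19505 genes, 55 with more than 1). Symbols came from the platform annotation.

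For each radiation type a linear model with group and batch was fitted with lmFit and eBayes, in place of the separate batch removal described in the methods. The F test, the batch and the sham comparisons used all 72 arrays. DEGs were called at an adjusted p under 0.25. Replicate numbers did not pair arrays (mean correlation of same-numbered arrays -0.08, -0.03 and -0.01 in the 3 radiation types). The number of arrays limits the precision. Text names every member, of each other list the genes called at Cs 80 cGy and up to 4 with the lowest p there, and the 3 genes most correlated with each member. The members and lists were chosen with earlier results of these data known. Scripts were tested on simulated data. Alternatives covered batch, scaling, samples in the fit, moderation, leaving out dim genes (kept at log2 of 5 or more in at least 4 arrays), thresholds, probe sets and each array left out.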

Additional observations from a re-analysis of the deposited data

Results flagged for a closer look

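The values of 4 arrays lay far from the other arrays of their own group. They were found among 120 sets of 4 or 5 arrays (8 genes in 15 groups) by the gap to the nearest array as a share of the range, at a limit that chance passes in about 1 of 20 sets, so that 4 sets of 120 are no more than chance gives. Cd226 read 4.54 in Cs 40 cGy replicate 1, above the other 4 arrays, and 2.81 in Si sham replicate 3, below the other 3. S100a9 read 4.29 in Cs 80 cGy replicate 4, below the other 4 arrays, and 5.77 in Si 16 cGy replicate 1, above the other 4. Cs 80 cGy replicate 5 was not among them in any of the 8 genes.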

How the results depend on the processing

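The count of members called at Cs 80 cGy against Cs sham (4) was 2 with no batch term, 0 in batch 1 arrays only, 5 in batch 2 arrays only, 3 with values as deposited, 3 with array medians aligned, 0 with all 72 arrays in the same fit, 0 with the 2 compared groups only, 1 with dim genes left out (Rgs18, Cd226, S100a8 and S100a9 fell below that filter) and 0 at an adjusted p under 0.05. Leaving out each array gave 0 to 5. The count over the other 11 dose groups (2) was 0 with no batch term, in batch 2 arrays only, with batch as a random block and at 0.05. It was 1 in batch 1 arrays only, with 2 arrays moved to batch 2, with all 72 arrays in the same fit, with the compared groups only, with trend and robust moderation and with dim genes left out, and 13 with values as deposited (1 to 3 with each array left out). Against the other Cs doses (2) it was 1 with no batch term, in batch 2 arrays only, with batch as a random block and with those groups only, and 0 in batch 1 arrays only, with all 72 arrays, with dim genes left out and at 0.05 (0 to 2). For the 15 groups (3) it was 1 with no batch term, 0 in either batch alone and at 0.05, and 8 with values as deposited (1 to 4, with 1 only without Cs 80 cGy replicate 5). Linear dose (0) gave 7 and sham against sham (0) gave 7 with values as deposited, sham against sham gave 1 in batch 1 arrays only, and both stayed at 0 with each array left out. The batch count (5) was 8 with values as deposited (4 to 6). The 13 calls over the other dose groups with values as deposited mixed directions. They were 4 upward at Ti 3 cGy, 6 upward at Ti 6.5 cGy and 3 downward at Si 32 cGy. With these values all genes shifted with array level. Shares of all genes called are not given for the settings in this paragraph, so the counts describe the members only. With a replicate block beside batch the count at Cs 80 cGy was 3, against the other Cs doses 1, and S100a8 lost its call (adjusted p = 0.256). Replicate numbers gave no pairing, with 1, 1 and 2 of 24 arrays closest to their own number. Of the 8 differences at Cs 80 cGy only Itga2b changed sign, to -0.064 in batch 2 arrays only, and it ran from -0.0018 (without Cs 80 cGy replicate 3) to 0.102 with each Cs array left out. The Ppbp difference ran from 1.36 to 2.71 over the alternatives and 1.57 to 2.18 with each Cs array left out. The causes were not tested. Rgs18 and S100a8 are limited by signal at background. Rgs18, Cd226, S100a8 and S100a9 passed the stricter background limit on 1, 2, 0 and 0 of the 72 arrays.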
